A study of Homo sapiens with 9 samples.

Results

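The long arm of chromosome 17 around HLF was examined in U2-OS, a human line established from an osteosarcoma. The 38 genes described, chosen by position and by mean level, are the protein-coding genes of GENCODE on GRCh38 that start in a stretch of 8.56 megabases, from PHB1 (start 49404049) to CUEDC1 (end 57955412), and that reached a mean of at least 4 CPM, a gene's counts scaled to its library's total, over the libraries. They are 38 of the 60609 gene identifiers counted in the series and 38 of the 62 protein-coding genes that start in that stretch. HLF, COL1A1 and COX11 were left out by the rule. The stretch was proposed because its genes had been seen lower in these same libraries, and those 3 genes were left out with that known. Differences of the 38 genes from the vector libraries are therefore given as a description, and the counts of lower genes support nothing on their own. The calls of the test over all genes in that contrast are given, but nothing is read from them.

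Total RNA was sequenced after ribosomal RNA removal in 9 libraries, although 1 field of the labels gives the molecule as polyA RNA. Clones A1 and A4 both overexpress NCBP2, which encodes the subunit of the nuclear cap-binding complex that contacts the mRNA cap, and each gave 3 libraries, named replicates A, B and C. The other 3 came from 3 different clones that carry the empty vector, 1 library per clone. Each NCBP2 group thus stands for 1 clone, whereas the vector group spans 3 clones. The labels give neither the promoter of the construct nor whether libraries of 1 clone were separate cultures. P-values thus measure the spread between these libraries, part of which may be technical. The test used 1 spread per gene for all 3 groups, which mixes libraries of 1 clone with libraries of 3 clones. How far NCBP2 clones in general differ from one another is not in that spread.

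Genes that lie next to each other on a chromosome share the DNA copy number of their segment, and close neighbours can share promoters and chromatin domains. The segment holds no single pathway. Its genes serve mitochondria (the prohibitin PHB1, ribosomal proteins MRPL27 and MRPS23), RNA metabolism (LUC7L3, COIL, MSI2), chromatin and protein turnover (KAT7, MBTD1, SPOP, TRIM25) and the membranes and secretory pathway (ITGA3, LRRC59, ABCC3). HLF, which has 25 members before it and 13 after it on the chromosome, encodes a transcription factor of the PAR bZIP family.

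The libraries were checked before the segment was described. NCBP2 measured 298.9, 348.4 and 304.7 CPM in the A1 libraries, 796.3, 1035 and 456.2 CPM in the A4 libraries and 98.4, 90.6 and 98.3 CPM with vector, in the order of replicates A, B and C that is used throughout. All 6 libraries labelled as NCBP2 clones lay above all 3 vector libraries. Counts on the strand of annotated genes ranged from 29234022 to 50554080 per library, and the 38 genes held 59143 to 144311 of them, with no member under 78 counts in any library. Clone A1 replicate A stood apart: across genes, which are not independent replicates, it correlated at 0.899 to 0.928 with the rest, and the 28 pairs without it at 0.947 to 0.970. This library also had the fewest counts on the strand of annotated genes, 29234022, where the next lowest had 37012934. Counts were found for 21823 genes in it and for at least 25390 in every other library. VIM, SPARC and RUNX2, genes of mesenchymal and bone-forming cells, measured at least 1302, 1398 and 182.4 CPM. COL1A2, SP7 and BGLAP, further genes of the osteoblast lineage, reached at most 1.15, 0.0269 and 0.0235 CPM. ALPL, another gene of that lineage, measured 1.20 to 4.12 CPM. TERT, the telomerase gene that U2-OS is known not to express, had 0 counts, which allows up to 0.00784 CPM over the 9 libraries together. Leukocyte and endothelial markers reached at most 2.01 CPM (PTPRC), and the epithelial marker EPCAM measured 2.42 to 5.58 CPM.

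The 38 genes together held a smaller share of the counts in both NCBP2 clones. The summed level of the 38 genes was 2081, 2213 and 2231 CPM in the A1 libraries, 2158, 2338 and 2116 CPM in the A4 libraries, and 3120, 2816 and 2780 CPM with vector. In this sum the highest NCBP2 library lay below the lowest vector library. The sum leaves out COL1A1, at a mean of 1201 CPM. COL1A1 measured 1883 CPM in clone A4 replicate C and 1090 CPM in vector replicate C. With COL1A1 added, that A4 library would lie above that vector library, so the separation holds for the 38 genes only. The vector mean was 2906 CPM ± 186.6 (SD, n = 3). The A1 mean of 2175 CPM ± 81.7 (SD, n = 3) was 0.749 of it, and the A4 mean of 2204 CPM ± 118.0 (SD, n = 3) was 0.759 of it. The sum is dominated by genes with many counts. The median gene was therefore followed too, as log2 CPM minus the mean of the vector libraries, with 0.5 added to each CPM. It stood at -0.52, -0.32 and -0.32 for A1, at -0.38, -0.28 and -0.38 for A4, and at 0.08, 0.04 and -0.08 with vector. The same median over the other protein-coding genes with at least 4 CPM stayed between -0.07 and 0.04 in all 9 libraries. In bulk RNA, fewer cells with a transcript and less transcript per cell cannot be told apart.

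**Figure D1:**
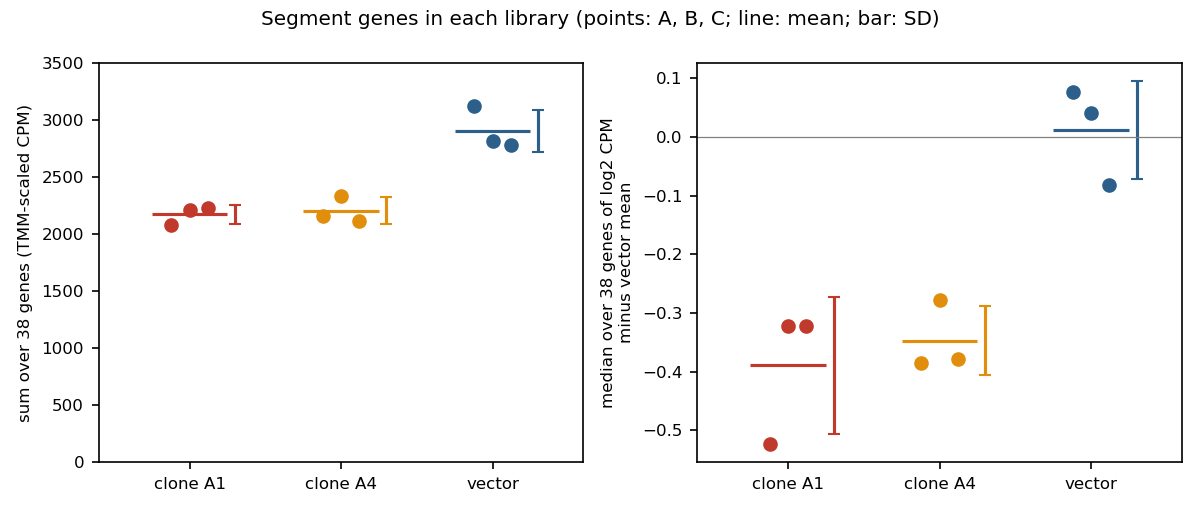
Summed level of the 38 segment genes in TMM-scaled CPM (left) and their median log2 CPM relative to the vector mean (right). Points are libraries A, B and C of each group, lines are means and bars are SD. The 6 NCBP2 libraries sit between 2081 and 2338 CPM, and the 3 vector libraries between 2780 and 3120 CPM.

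Gene by gene, the fitted log2 fold change was below 0 for 37 of 38 genes in clone A1 and for 33 of 38 in clone A4. Over all 21682 genes tested, 51.6% lay below 0 in clone A1 and 46.4% in clone A4, and over the 10606 protein-coding genes with the same minimum 52.2% and 52%. The median over the 38 genes was -0.38 in clone A1 and -0.36 in clone A4. Over all genes tested it was -0.02 and 0.03. These 2 comparisons share the vector libraries, so the sign counts are not independent of each other. With COL1A1 and COX11 put back, 38 of 40 genes lay below 0 in clone A1 and 34 of 40 in clone A4, with medians of -0.38 and -0.33. All 3 clone libraries lay below all 3 vector libraries for 18 genes with A1 and 15 with A4. That separation was seen for 8.06% and 5.86% of all genes tested and for 8.75% and 6.79% of the protein-coding genes with the minimum. In the other direction, 1 member, CACNA1G, had all A1 libraries above all vector libraries (6.18% of all genes tested).

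By edgeR's quasi-likelihood test with Benjamini-Hochberg adjustment, 0 of the 38 genes passed an adjusted p of 0.05 in either clone, where 0.0646% of all genes did in clone A1 and 0.115% in clone A4. At an unadjusted p under 0.05, 12 genes were lower in clone A1 (4.27% of all genes were) and 10 in clone A4 (2.75%). DESeq2 called LRRC59, TMEM100 and MSI2 in clone A1 and MSI2 in clone A4, where it called 1.26% and 0.853% of all genes. Without a filter on low counts, edgeR called ITGA3, LRRC59 and MSI2 in clone A1 (0.827% of all genes) and none of the 38 in clone A4 (0.432%). The members were chosen on this contrast, so nothing is read from these counts.

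**Figure D2:**
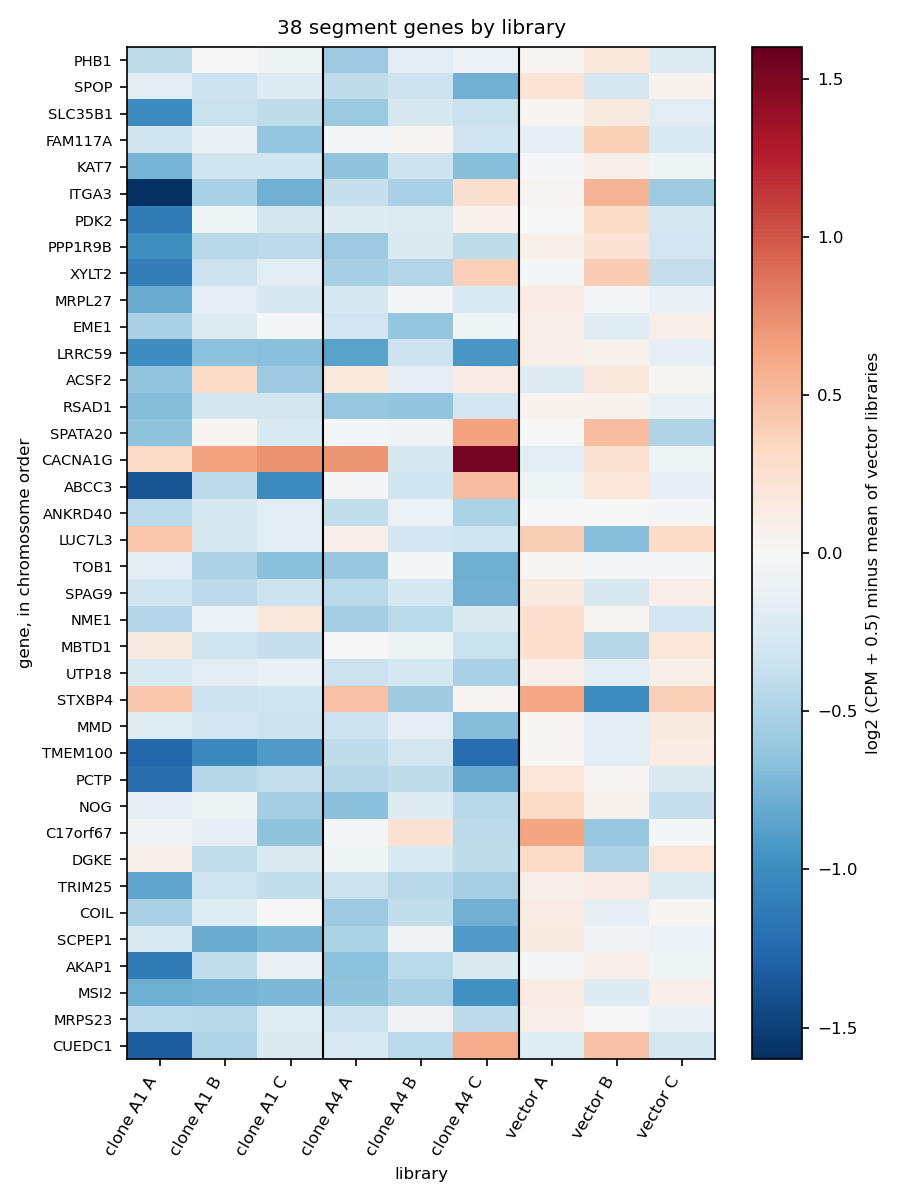
Log2 CPM of each segment gene (rows, in chromosome order) in each library (columns), minus the mean of the vector libraries. Blue is lower and red is higher. Most cells of the 6 NCBP2 columns are blue. CACNA1G is red in 5 of them, and clone A1 replicate A holds the darkest blue.

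Promoter sequences are shown for 4 of the 8 genes with the lowest mean of both clones' values, to set starts beside values. These are the 4 whose RefSeq start coincides with the GENCODE 5′ end. UTP18 is shown too. Its window covers only the part next to UTP18 of the 383 bases between its start and that of MBTD1. RefSeq entries (GRCh38.p14) were found for 30 of the 38 genes, and 14 began at the GENCODE 5′ end. The 250 bases upstream of each start are given 5′ to 3′, with matches on either strand in capitals. The motifs searched were the GC box GGGCGG, the CCAAT box CCAAT and the TATA box TATAAA. None of these contains another.
MSI2 (chr17:57255601-57255850, plus strand): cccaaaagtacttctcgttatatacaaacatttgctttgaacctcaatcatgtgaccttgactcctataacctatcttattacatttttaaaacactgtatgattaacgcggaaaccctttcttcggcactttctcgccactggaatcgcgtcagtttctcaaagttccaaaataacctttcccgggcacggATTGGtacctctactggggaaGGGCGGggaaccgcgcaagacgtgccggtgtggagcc
LRRC59 (chr17:50397524-50397773, minus strand): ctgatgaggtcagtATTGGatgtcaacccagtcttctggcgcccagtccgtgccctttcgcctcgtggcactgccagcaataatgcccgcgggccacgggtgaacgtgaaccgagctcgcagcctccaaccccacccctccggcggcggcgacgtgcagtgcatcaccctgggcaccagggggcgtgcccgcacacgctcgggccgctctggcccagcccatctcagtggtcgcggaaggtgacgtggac
PCTP (chr17:55750801-55751050, plus strand): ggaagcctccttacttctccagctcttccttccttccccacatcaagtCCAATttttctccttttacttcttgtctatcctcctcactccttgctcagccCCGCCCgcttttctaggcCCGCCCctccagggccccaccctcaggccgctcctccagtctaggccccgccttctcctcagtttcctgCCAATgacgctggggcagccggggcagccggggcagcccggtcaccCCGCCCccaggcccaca
PPP1R9B (chr17:50150678-50150927, minus strand): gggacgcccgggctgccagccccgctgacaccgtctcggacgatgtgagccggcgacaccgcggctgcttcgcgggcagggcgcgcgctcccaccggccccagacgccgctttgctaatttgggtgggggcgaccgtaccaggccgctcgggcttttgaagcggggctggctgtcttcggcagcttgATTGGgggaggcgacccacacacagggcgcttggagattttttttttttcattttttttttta
UTP18 (chr17:51260296-51260545, plus strand): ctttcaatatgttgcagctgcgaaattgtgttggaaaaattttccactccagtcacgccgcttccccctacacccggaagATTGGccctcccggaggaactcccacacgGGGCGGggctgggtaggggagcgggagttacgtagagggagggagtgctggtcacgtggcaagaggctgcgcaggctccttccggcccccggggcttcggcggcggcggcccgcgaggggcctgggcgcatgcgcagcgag
GGGCGG occurs in 6 of the 14 windows and in 42.6% of all 35097 promoter windows of this length. CCAAT occurs in 8 of 14 and in 32.0% of all, and TATAAA in 0 of 14 and in 10.7% of all. MSI2 and LRRC59, close in their log2 fold changes, have upstream windows of 46.4% and 67.6% GC with 14 and 23 CpG dinucleotides. A match describes the letters in the window and not a bound site.

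MSI2, which encodes the RNA-binding protein Musashi 2 (ENSG00000153944.11, 57255851 to 57684689, plus strand), was among the genes with the largest differences. It measured 119.9, 122.1 and 125.6 CPM in the A1 libraries, 131.5, 143.3 and 105.4 CPM in the A4 libraries and 226.3, 178.3 and 217.7 CPM with vector. The clones do not overlap the vector libraries, and clone A1 varies by only a few CPM. Its fitted log2 fold change was -0.76 (SE 0.165) for A1 and -0.71 (SE 0.165) for A4. LUC7L3, a splicing factor related to yeast Luc7 (ENSG00000108848.16, 50719565 to 50756219, plus strand), had the most counts of the segment and lay near the other end. It measured 300.0, 183.9 and 193.2 CPM in the A1 libraries, 233.6, 177.5 and 175.4 CPM in the A4 libraries and 287.9, 137.2 and 268.6 CPM with vector. Here the groups overlap: vector replicate B is the lowest of all 9 libraries and clone A1 replicate A the highest. The log2 fold change was -0.04 (SE 0.274) for A1 and -0.24 (SE 0.274) for A4. Without vector replicate B the clone A1 value was -0.30, and without vector replicate A it was 0.15.

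The other 3 genes of the RNA list were UTP18, COIL and TOB1. UTP18, a component of the small-subunit processome that matures ribosomal RNA, measured 60.4, 63.1 and 66.4 CPM in the A1 libraries, 56.1, 59.0 and 49.9 CPM in the A4 libraries and 75.5, 63.6 and 76.5 CPM with vector. Clone A4 lies below all libraries of the other groups, and clone A1 overlaps the vector libraries. COIL, which encodes coilin of the Cajal body, differed by -0.23 and -0.58 on the log2 scale in clones A1 and A4, and TOB1, an antiproliferative protein that recruits deadenylases to mRNAs, by -0.43 and -0.43. All 5 genes of this list had log2 fold changes below 0 in both clones, with medians of -0.23 and -0.43. Counts by list, here and below, are a description only. Over all 38 genes, 37 and 33 lay below 0, and the segment was proposed because its genes were lower. Whether any list differs from the rest of the segment was not tested.

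Among the genes of chromatin, DNA repair, ubiquitin and transcription, all 6 assigned members also lay below 0 in both clones. KAT7, the catalytic subunit of the HBO1 histone acetyltransferase complex (ENSG00000136504.12, 49788624 to 49835026, plus strand), measured 134.9, 180.8 and 181.1 CPM in the A1 libraries, 143.9, 179.4 and 140.3 CPM in the A4 libraries and 223.4, 240.8 and 214.7 CPM with vector. No clone library reaches the lowest vector library, and the log2 fold change was -0.45 (SE 0.169) for A1 and -0.55 (SE 0.17) for A4. ANKRD40, which was placed in this list without a role being certain, measured 149.9, 170.6 and 178.9 CPM in the A1 libraries, 153.9, 191.0 and 143.2 CPM in the A4 libraries and 204.0, 204.6 and 200.6 CPM with vector. The vector libraries lie within 5 CPM of one another, above all 6 others, and the log2 fold changes were -0.29 and -0.32. SPOP, the substrate adaptor of a cullin-3 ubiquitin ligase, differed by -0.25 and -0.51 and TRIM25, a ubiquitin ligase of antiviral RNA sensing, by -0.51 and -0.45. MBTD1, a subunit of the NuA4/TIP60 acetyltransferase complex, measured 53.5, 38.4 and 37.2 CPM in the A1 libraries, 47.8, 45.3 and 37.6 CPM in the A4 libraries and 57.7, 35.1 and 55.1 CPM with vector, with vector replicate B the lowest. EME1, the partner of the MUS81 nuclease, measured 9.75, 12.3 and 13.9 CPM in the A1 libraries, 11.4, 9.08 and 13.5 CPM in the A4 libraries and 15.1, 12.4 and 15.3 CPM with vector, and its groups overlap.

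The largest list, 13 genes of membranes, secretion and trafficking, was also the most mixed: 12 lay below 0 in clone A1 and 10 in clone A4, with medians of -0.58 and -0.39. LRRC59, a ribosome-binding protein of the endoplasmic reticulum (ENSG00000108829.10, 50375059 to 50397523, minus strand), measured 120.5, 152.6 and 151.4 CPM in the A1 libraries, 133.2, 191.1 and 125.8 CPM in the A4 libraries and 258.4, 250.5 and 216.7 CPM with vector. All 6 clone libraries stay below the vector libraries, with a log2 fold change of -0.77 (SE 0.189) for A1 and -0.69 (SE 0.189) for A4. TMEM100, a small membrane protein known from endothelial BMP signalling (ENSG00000166292.12, 55719627 to 55732121, minus strand), measured 4.33, 5.14 and 5.64 CPM in the A1 libraries, 8.2, 8.89 and 4.46 CPM in the A4 libraries and 11.3, 9.76 and 12.2 CPM with vector. It had the lowest mean of the 2 clones' values, -1.13 (SE 0.301) for A1 and -0.62 (SE 0.297) for A4, and the clones again lie below all vector libraries. PCTP, a phosphatidylcholine transfer protein (ENSG00000141179.14, 55751051 to 55842830, plus strand), measured 7.99, 13.7 and 14.5 CPM in the A1 libraries, 13.8, 14.3 and 10.7 CPM in the A4 libraries and 21.8, 19.7 and 16.2 CPM with vector. SCPEP1, a serine carboxypeptidase (ENSG00000121064.12, 56978129 to 57006768, plus strand), measured 33.3, 22.6 and 23.8 CPM in the A1 libraries, 27.7, 38.3 and 20.9 CPM in the A4 libraries and 43.6, 37.9 and 37.0 CPM with vector. For PCTP the clones do not overlap the vector libraries, and the log2 fold change was -0.67 (SE 0.266) for A1 and -0.57 (SE 0.265) for A4. SCPEP1 in clone A4 replicate B exceeds 2 of the vector libraries, and its values were -0.57 (SE 0.244) for A1 and -0.45 (SE 0.243) for A4.

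Other genes of the list had the largest differences between the 2 clones or went the other way. Only for ABCC3 did the libraries of the 2 clones not overlap. ITGA3, the integrin alpha-3 chain that pairs with beta-1 as a laminin receptor (ENSG00000005884.18, 50055968 to 50090481, plus strand), measured 56.2, 122.6 and 102.8 CPM in the A1 libraries, 135.9, 122.2 and 210.0 CPM in the A4 libraries and 180.7, 256.1 and 117.5 CPM with vector. The vector libraries themselves spread widely, vector replicate C lies below clone A1 replicate B, and the log2 fold change was -0.98 (SE 0.328) for A1 and -0.24 (SE 0.325) for A4. ABCC3, an organic anion exporter of the multidrug resistance family (ENSG00000108846.16, 50634777 to 50692253, plus strand), measured 5.77, 11.7 and 7.55 CPM in the A1 libraries, 15.5, 12.6 and 22.5 CPM in the A4 libraries and 15.1, 18.2 and 14.4 CPM with vector. Clone A1 lies below every other library, whereas clone A4 straddles the vector range, at -0.93 and 0.08 on the log2 scale. CUEDC1, a CUE-domain protein that ends the segment (ENSG00000180891.13, 57861243 to 57955412, minus strand), measured 18.9, 34.3 and 40.8 CPM in the A1 libraries, 40.6, 35.7 and 73.0 CPM in the A4 libraries and 42.1, 67.0 and 39.6 CPM with vector. Its clone A4 value of 0.01 rested on replicate C and was -0.40 without that library.

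CACNA1G, the T-type calcium channel Cav3.1 (ENSG00000006283.18, 50560715 to 50627474, plus strand), was the member with values above 0 in both clones. It measured 3.94, 5.11 and 5.38 CPM in the A1 libraries, 5.35, 2.48 and 9.87 CPM in the A4 libraries and 2.69, 3.75 and 2.9 CPM with vector. All 3 libraries of clone A1 lie above the vector libraries, but clone A4 holds both the lowest and the highest library of all, and the log2 fold change was 0.63 (SE 0.432) for A1 and 0.92 (SE 0.432) for A4. Without clone A4 replicate C, the clone A4 value was 0.31. The remaining genes of the list were described by their log2 fold changes in clones A1 and A4. These were -0.58 and -0.41 for SLC35B1, a nucleotide transporter of the endoplasmic reticulum, -0.55 and -0.19 for XYLT2, a xylosyltransferase that starts glycosaminoglycan chains, and -0.27 and -0.46 for NOG, the secreted BMP antagonist noggin. For MMD, a membrane protein linked to macrophage differentiation, they were -0.29 and -0.39, and for STXBP4, a syntaxin-binding protein, -0.18 and -0.11.

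All 7 mitochondrial genes lay below 0 in clone A1 and 6 of 7 in clone A4, with medians of -0.38 and -0.27. MRPL27, a protein of the large mitochondrial ribosomal subunit, measured 14.8, 23.5 and 21.7 CPM in the A1 libraries, 21.7, 25.8 and 22.0 CPM in the A4 libraries and 28.5, 25.7 and 24.1 CPM with vector. Clone A1 lies below the vector libraries, and clone A4 overlaps them through replicate B. The exception in clone A4 was ACSF2, an acyl-CoA synthetase family member, which measured 2.74, 5.73 and 2.87 CPM in the A1 libraries, 5.18, 4.07 and 4.99 CPM in the A4 libraries and 3.88, 5.21 and 4.61 CPM with vector, with a log2 fold change of -0.27 (SE 0.347) for A1 and 0.06 (SE 0.346) for A4. Its groups overlap. In clones A1 and A4 the log2 fold changes were -0.17 and -0.28 for PHB1, -0.45 and -0.14 for PDK2, a kinase that inhibits pyruvate dehydrogenase, and -0.49 and -0.43 for AKAP1, an anchor of protein kinase A on the outer mitochondrial membrane. They were -0.36 and -0.27 for MRPS23 of the small mitochondrial ribosomal subunit and -0.43 and -0.52 for RSAD1, a radical SAM protein. For RSAD1 and AKAP1, both clones lay below all vector libraries.

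The 4 genes of signalling and scaffolds lay below 0 in both clones, with medians of -0.38 and -0.35. SPAG9, the JIP4 scaffold of MAP kinase signalling and motor transport, measured 164.9, 153.5 and 161.8 CPM in the A1 libraries, 152.3, 169.7 and 120.5 CPM in the A4 libraries and 227.2, 172.9 and 222.7 CPM with vector. Neither clone overlaps the vector libraries. PPP1R9B, the actin-binding spinophilin that targets protein phosphatase 1, measured 49.0, 71.3 and 72.7 CPM in the A1 libraries, 64.8, 82.8 and 73.6 CPM in the A4 libraries and 102.7, 114.1 and 78.7 CPM with vector. Its log2 fold change was -0.61 (SE 0.206) for A1 and -0.42 (SE 0.206) for A4, and clone A4 replicate B exceeds vector replicate C. FAM117A, whose role is not well defined, measured 4.79, 5.65 and 3.81 CPM in the A1 libraries, 5.96, 6.21 and 4.81 CPM in the A4 libraries and 5.48, 8.12 and 5.1 CPM with vector, and its groups overlap. DGKE, a diacylglycerol kinase, differed by -0.21 and -0.28.

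NME1, a nucleoside diphosphate kinase, differed by -0.12 and -0.42 on the log2 scale. Its tandem neighbour NME2 reached a mean of only 1.09 CPM, and the readthrough gene NME1-NME2, which overlaps both, had a mean of 0 CPM. The files hold a separate line of ambiguous reads, so the levels of NME1 and NME2 are uncertain. The last 2 members, SPATA20 and C17orf67, have no role stated here. SPATA20 measured 16.5, 26.7 and 22.0 CPM in the A1 libraries, 25.8, 25.2 and 40.9 CPM in the A4 libraries and 25.9, 36.9 and 18.5 CPM with vector. Clone A4 replicate C is the highest library for this gene, and the clone A4 log2 fold change of 0.17 became -0.11 without it. C17orf67 differed by -0.38 and -0.14.

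**Figure D3:**
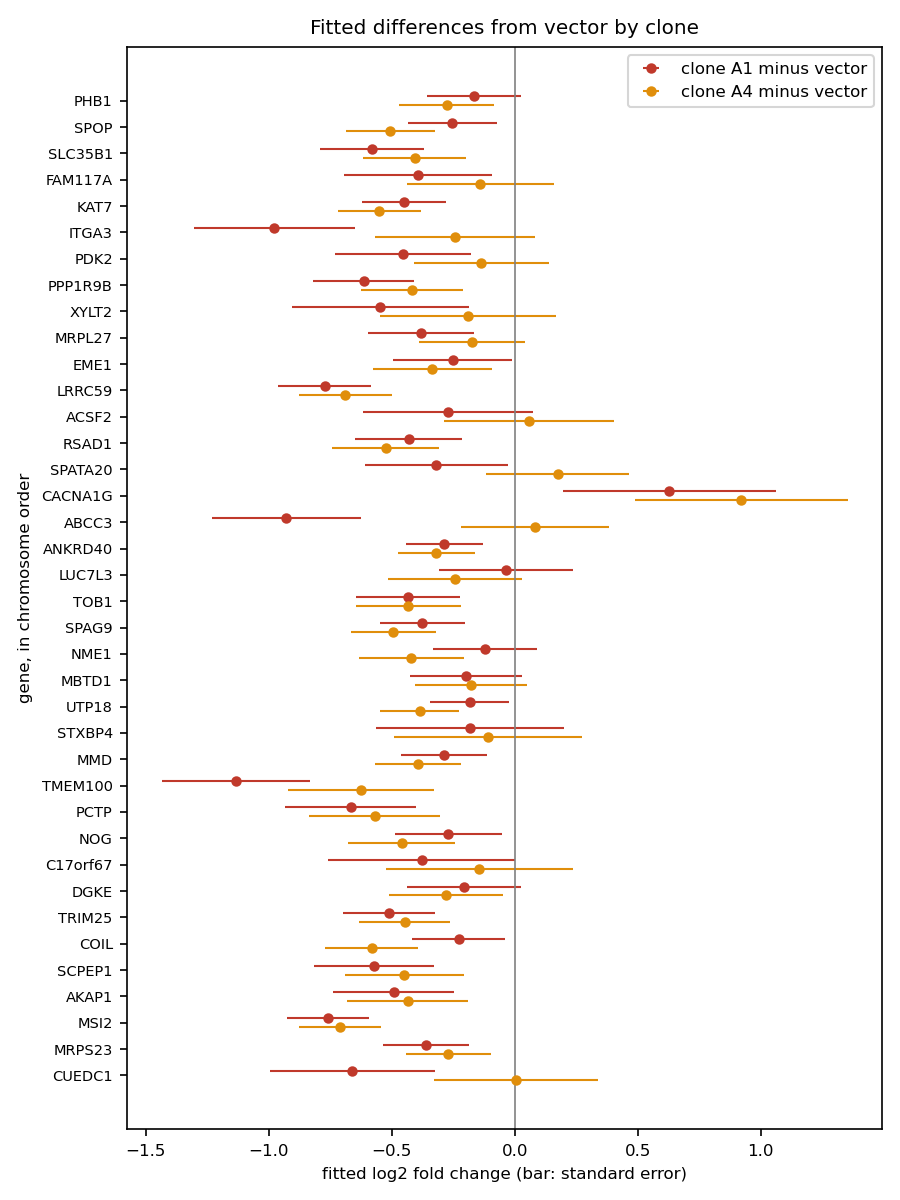
Fitted log2 fold changes of clone A1 (red) and clone A4 (orange) from the vector libraries for each segment gene in chromosome order, with standard errors as bars. Of the red points 37 lie left of 0, and of the orange points 33. ABCC3, ITGA3 and CUEDC1 show the widest distance between the clones.

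The segment was proposed from differences from vector, and the difference between the clones was tested. The test is not free of that choice. The genes had been seen lower in the NCBP2 clones, and COL1A1 was left out with that known. By edgeR's quasi-likelihood test, 0 of the 38 genes passed an adjusted p of 0.05 for A4 against A1, where 0.161% of all genes did. DESeq2 called 0 of them as well, with 1.13% of all genes called. At an unadjusted p under 0.05 in edgeR there were 2 of the 38 genes, ABCC3 and ITGA3, both higher in clone A4. Of all genes, 6.63% passed in either direction. COL1A1, left out by the rule, passed too, at 0.83 in log2 terms (SE 0.243, edgeR adjusted p 0.359). ABCC3 differed most, by 1.01 in log2 terms (SE 0.305, edgeR adjusted p 0.407), with all A4 libraries above all A1 libraries; 7.92% of all genes showed that separation. ITGA3 differed by 0.73 (SE 0.327, edgeR adjusted p 0.735) and CUEDC1 by 0.67 (SE 0.335, edgeR adjusted p 0.774). For MSI2 and LRRC59, among the lowest genes in both clones, the difference between clones was 0.05 (SE 0.165) and 0.08 (SE 0.188). UTP18 was the member with all A4 libraries below all A1 libraries (5.72% of all genes), at -0.20. Of the 38 genes, 14 had a value below 0 (46.8% of all genes did), and the median was 0.07 against 0.04 over all genes tested. Missing the threshold does not show that the clones have equal levels.

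The values were then set along the chromosome. In the part from PHB1 to UTP18, 24 genes had a median log2 fold change of -0.38 in clone A1 and -0.30 in clone A4. From STXBP4 to PCTP there were 4 genes, with -0.48 and -0.48, and from NOG to CUEDC1 10 genes, with -0.44 and -0.44. The 4 genes leave out COX11, next to STXBP4, at 0.06 and -0.11. With COX11 put back, the median would be the value of MMD, -0.29 and -0.39. The stretch of equal length before the segment held 93 genes with medians of -0.22 and -0.04, and the one after it held 54 genes with 0.02 and -0.05. The rest of 17q (241 genes) stood at -0.13 and 0.00, and 17p (156 genes) at -0.11 and -0.01. The median was thus also below 0 in 3 of these 4 stretches in clone A1, and in clone A4 in all 4, where it lay within 0.05 of 0.

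A running median over 11 neighbouring genes was followed along the chromosome. No member lies between UTP18 (end 51297936) and STXBP4 (start 54968727), so windows near that gap join genes from both sides. Windows near the ends of the segment also hold genes outside it. Over the 38 genes it stayed between -0.55 and -0.18 in clone A1 and between -0.45 and -0.17 in clone A4. In clone A4 its lowest point on the chromosome lay within the segment, at DGKE, 1.57 megabases after the start of HLF. In clone A1 the lowest point, -0.59, lay outside it, at HOXB3, 6.72 megabases before the start of HLF. Values below 0 did not end at the ends of the segment. Of the 10 genes nearest before PHB1, from HOXB6 to ZNF652, 9 lay below 0 in each clone, with medians of -0.43 for A1 and -0.34 for A4, and the running median there was -0.56 to -0.25 and -0.35 to -0.31. HOXB9, a homeobox gene, had -0.70 and -0.53, and ATP5MC1, a subunit of mitochondrial ATP synthase, had -0.56 and -0.37. Of the 10 genes nearest after CUEDC1, 4 lay below 0 in clone A1 and 9 in clone A4, with medians of 0.06 and -0.22. DYNLL2, a dynein light chain among them, had -0.50 and -0.34. These genes were chosen after their values were seen. ZNF652, a zinc finger gene just before PHB1, measured 111.1, 102.4 and 92.3 CPM in the A1 libraries, 91.5, 108.6 and 82.5 CPM in the A4 libraries and 148.0, 121.7 and 138.2 CPM with vector. Its clones do not overlap the vector libraries, as for KAT7. VEZF1, a zinc finger transcription factor just after CUEDC1, had log2 fold changes of -0.22 and -0.35 in clones A1 and A4. The splicing factor SRSF1, next after it, had 0.07 and -0.26, and IGF2BP1, an mRNA-binding protein before ZNF652, had 0.01 and -0.34.

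**Figure D4:**
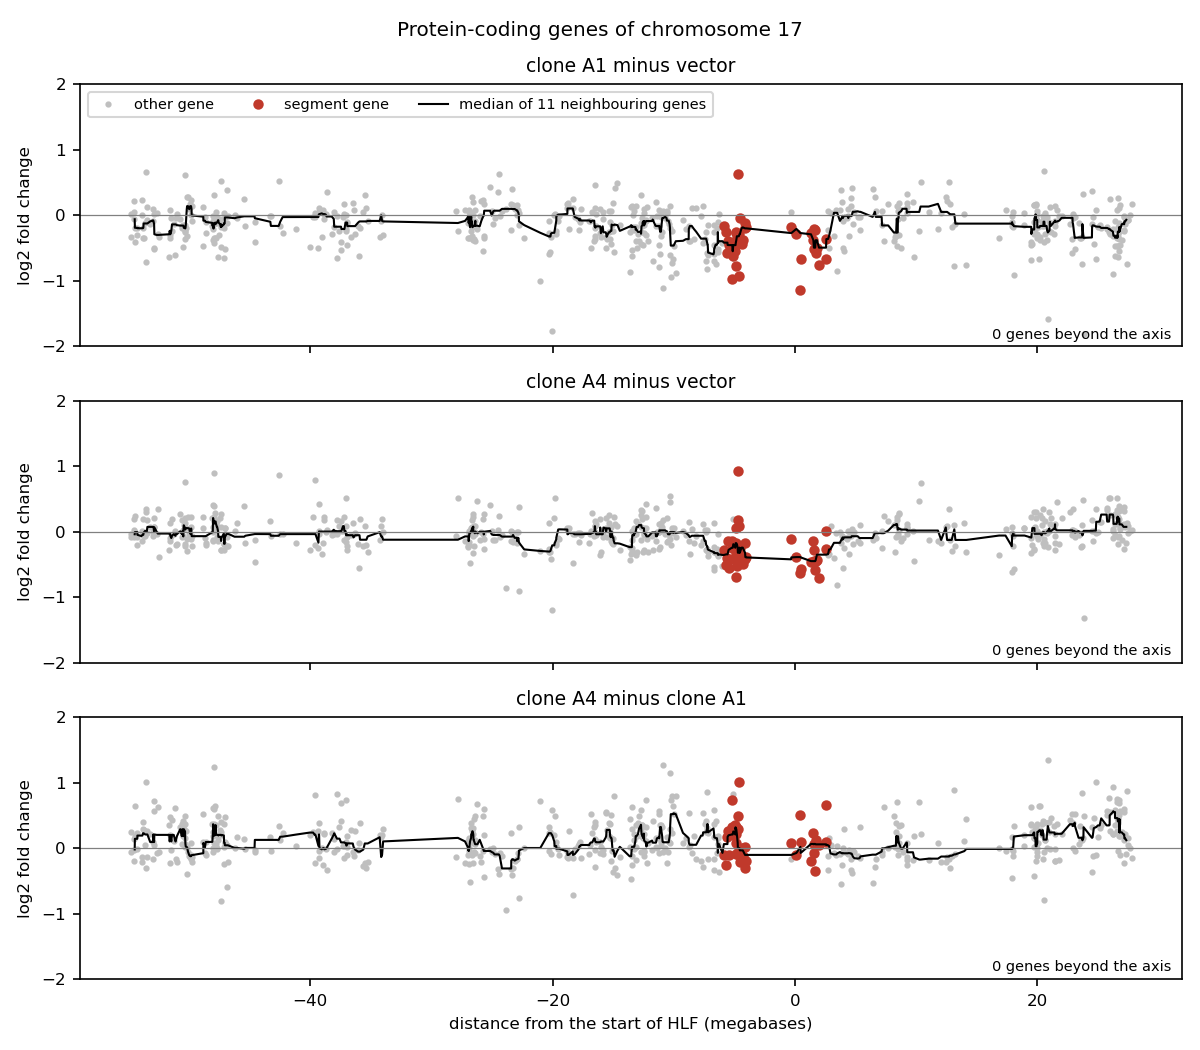
Fitted log2 fold changes of protein-coding genes with at least 4 CPM along chromosome 17, by distance from the start of HLF in megabases. Red points are the 38 segment genes, grey points the other genes and the line the median of 11 neighbours. The line runs below 0 through the segment in both comparisons with vector, and in clone A1 it is lowest to the left of the segment. Between UTP18 and STXBP4 it bridges a stretch without segment genes.

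The 3 genes left out by the rule differed from one another. HLF (ENSG00000108924.14, 55264960 to 55325187, plus strand) measured 3.52, 3.82 and 2.99 CPM in the A1 libraries, 4.74, 8.49 and 4.3 CPM in the A4 libraries and 0.455, 0.507 and 0.146 CPM with vector. All 6 NCBP2 libraries exceed the vector libraries, and its mean of 3.23 CPM would also have missed the minimum. COL1A1, the alpha-1 chain of type I collagen (ENSG00000108821.13, 50184101 to 50201632, minus strand), measured 532.2, 949.7 and 992.4 CPM in the A1 libraries, 1238, 1284 and 1883 CPM in the A4 libraries and 1271, 1505 and 1090 CPM with vector. It lay below the vector libraries in clone A1 but not in clone A4. COX11, an assembly factor of cytochrome c oxidase (ENSG00000166260.11, 54951902 to 54968703, minus strand), measured 98.8, 76.7 and 86.5 CPM in the A1 libraries, 83.2, 89.9 and 59.6 CPM in the A4 libraries and 88.1, 64.9 and 98.5 CPM with vector, with log2 fold changes of 0.06 and -0.11 in clones A1 and A4. The members just inside the minimum were ACSF2 at a mean of 4.38 CPM, CACNA1G at 4.66 CPM and C17orf67 at 4.80 CPM. The genes below HLF in the ranking were SAMD14 at 1.57 CPM and NME2 at 1.09 CPM. ANKFN1 followed at 1.06 CPM, with 0, 0.726 and 0.635 CPM in the A1 libraries, 0.566, 0.341 and 1.12 CPM in the A4 libraries and 2.45, 1.44 and 2.24 CPM with vector. Of the 22 protein-coding genes under the minimum, 10 could be fitted, and 12 had a mean under 0.1 CPM.

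Noncoding genes were few. Of 113 genes of other types that start in the segment, 4 reached the minimum, and 2 of these lay below 0 in clone A1 and 4 in clone A4. The lncRNA ENSG00000264895 had log2 fold changes of 0.11 and -0.09 in clones A1 and A4. The other 3 belong to a GENCODE class of unproven transcripts, and in the same order ENSG00000278963 had 0.08 and -0.30, ENSG00000279089 -0.35 and -0.51 and ENSG00000279059 -0.18 and -0.25. All of them overlapped between groups in both comparisons with vector. Each lies within a protein-coding gene on the same strand. ENSG00000278963 lies in LUC7L3, ENSG00000279089 and ENSG00000264895 in MBTD1, and ENSG00000279059 in COX11. Their counts may include reads of those genes, so their levels are uncertain.

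Some members share a start region. MRPL27 and EME1 are transcribed away from each other from 5′ ends 13 bases apart, with log2 fold changes of -0.38 and -0.17 for MRPL27 in clones A1 and A4 and -0.25 and -0.34 for EME1. MBTD1 and UTP18 start 383 bases apart, also pointing away, with -0.20 and -0.18 for MBTD1 and -0.18 and -0.39 for UTP18. FAM117A and KAT7, on opposite strands, overlap by 557 bases at their 5′ ends. KAT7 separated from the vector libraries in both clones (-0.45 and -0.55), and FAM117A in neither (-0.39 and -0.14). None of these differences between partners was tested. Other members overlap by more: EME1 and LRRC59 by 6425 bases and DGKE and TRIM25 by 33181 bases, each pair on opposite strands. Over all genes 5.51% to 6.42% of stranded counts lay on the opposite strand, so the level of EME1, far below that of LRRC59, is uncertain. C17orf67 and TRIM25 overlap by 2387 bases on the same strand, so the low level of C17orf67 is uncertain.

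Single libraries shaped some of these values. Clone A1 replicate A, the library that stood apart, was the lowest of the 9 for 17 of the 38 genes. Without it, the clone A1 median was -0.32, 36 of 38 genes lay below 0, and the 2 remaining libraries lay below all vector libraries for 18 genes, against 11.7% of all genes. Clone A4 replicate C was the lowest library for 9 genes and the highest for 4, SPATA20, CACNA1G, ABCC3 and CUEDC1. Without it, 35 of 38 genes lay below 0 in clone A4. Vector replicate A was the highest library for 16 genes. Without it, the medians were -0.37 in clone A1 and -0.31 in clone A4, and 33 genes lay below 0 in each. Vector replicate B was the lowest of the 9 libraries for 4 genes, LUC7L3, MBTD1, STXBP4 and DGKE, and without it 37 genes lay below 0 in clone A1 and 29 in clone A4. Leaving out a vector library also leaves out its clone. The genes in these counts were identified after their values were seen.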

How the data were processed

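U2-OS RNA was measured in 9 libraries, 3 from each NCBP2 clone and 3 from vector clones, grouped by their titles. The authors deposited unnormalized whole-number counts for each gene. STAR 2.7.1a and GRCh38 are named in the submitters' processing notes without their roles; the annotation used for counting is not given in the sources used here. Column 3 of the deposited tables, which held most stranded counts, was taken as the gene's strand. Column 4 held 5.51% to 6.42% of the stranded counts. The 4 summary lines, 44.5% to 63.6% of a library's reads, stayed out of library sizes and tests. Total reads ranged from 80341579 to 111784333. Reads are not independent molecules, so limits from counts cover counting error only.

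Symbols and coordinates came from GENCODE release 44 on GRCh38 (60295 of 60609 identifiers matched without version, and 27 of the 38 members also with it). One edgeR 4.0.16 quasi-likelihood fit (R 4.3.3, robust, filterByExpr defaults, TMM) over 3 groups gave all 3 comparisons, with Benjamini-Hochberg adjustment over 21682 genes and a threshold of 0.05. CPM values use TMM-scaled library sizes, whereas the rule's minimum of 4 uses plain CPM. All 38 members passed the filter. Functions were tested on simulated data. DESeq2 1.42.0, other size factors (RLE), no filter, counts without strand, a replicate block, smaller fits and each library left out were tried. Named genes were the 5 members with most counts, the 8 lowest and 4 highest by the mean of both clones' log2 fold changes, the 3 with the largest clone difference, head-to-head pairs within 1000 bases and genes at the limits of the rule. The members and lists were chosen with earlier results of these data known. No library duplicated another (chi-square per degree of freedom 30.0 to 165.6 within groups).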

Additional observations from a re-analysis of the deposited data

How the results depend on the processing

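The median over the 38 genes kept its sign in both comparisons with vector under every alternative run. Leaving out 1 library gave -0.49 (clone A1 replicate B) to -0.32 (clone A1 replicate A) in clone A1, -0.44 to -0.31 in clone A4 and -0.01 (clone A4 replicate B) to 0.09 between the clones. CPM minimums of 1 and 10 gave -0.38 and -0.38 for A1 and -0.34 and -0.40 for A4. With COL1A1 and COX11 kept, chosen after seeing the data, the medians were -0.38 and -0.33. Over 15 refits, 33 to 37 members lay below 0 in clone A1 and 29 to 35 in clone A4. From counts without strand, in CPM without TMM scaling, the sum over the 38 genes was 2065 for A1, 2156 for A4 and 2755 with vector. The ratios were 0.749 and 0.783. Numbers of genes called over all genes, 14 in clone A1, 25 in clone A4 and 35 between the clones, were unstable. The same 3 numbers were 274, 185 and 246 by DESeq2, 312, 163 and 231 without a filter, and 7 in clone A1 with only the 6 libraries compared. With 1 library left out they ranged from 3 to 14, from 7 to 41 and from 10 to 56. The cause was not tested.

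With the replicate letter as a replicate block, 38, 53 and 51 of the 21682 genes tested were called, 0 of them members. With so few calls over all genes, nothing is read from that 0. Letters do not pair the libraries by the labels. Deviations of same-letter libraries of different groups correlated at -0.10 to 0.18 across genes, with a median of 0.13. For libraries of different groups and different letters the range was -0.27 to 0.22, with a median of -0.05. Whether a letter marks a shared batch was not tested. Within letters A, B and C, the median difference from the vector library of the same letter was -0.65, -0.36 and -0.20 for A1 and -0.45, -0.33 and -0.30 for A4. Each member had at least 78 counts per library, and ACSF2, just inside the minimum, had a standard error of 0.347 in clone A1. How depth and the number of clones compare as limits was not tested.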
